A study of Mus musculus with 16 samples.

Results

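The 9 small leucine-rich proteoglycan genes Dcn, Lum, Bgn, Fmod, Ogn, Aspn, Prelp, Omd and Podn were taken by symbol from the 21959 genes counted in each of 16 mice, and all 9 were present in the table and passed the filter on low counts. Tumor RNA had been sequenced from male wild-type C57BL/6 mice that were 6 weeks old when MC38 cells, a mouse colon carcinoma line, were placed in the lower part of the divided spleen to seed the liver. The 4 groups of 4 mice were the PBS control, SB525334 at 20 mg/kg by daily gavage, KN046 at 10 mg/kg by intraperitoneal injection given 2 times a week, and both agents together, called the combination. SB525334 blocks the kinase of the TGF-β receptor ALK5, and KN046 blocks the immune checkpoint proteins PD-L1 and CTLA-4. All mice carried tumors of 1 cell line, so no group varies the tumor genotype, and the p-values below measure only the spread between these mice. Lum was the member whose RNA differed most. Its mean level in the combination was 19.8% of the control level, while Dcn, its neighbor on chromosome 10, and Bgn, the most abundant member, were called in no comparison.

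Small leucine-rich proteoglycans are secreted proteins built on a curved row of leucine-rich repeats, most of which carry chondroitin, dermatan or keratan sulfate chains. Fibroblasts and related stromal cells make most of them. They bind collagen fibrils and set their width and spacing, and several also bind growth factors such as TGF-β or receptors on nearby cells. The family is divided into classes by sequence. Dcn (decorin), Bgn (biglycan) and Aspn (asporin) belong to class I, Lum (lumican), Fmod (fibromodulin), Prelp (proline- and arginine-rich end leucine-rich repeat protein) and Omd (osteomodulin) to class II, Ogn (osteoglycin) to class III and Podn (podocan) to class V.

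The libraries differed in their content of other cells before any member was considered. CPM values are read counts adjusted for the depth of each library. Over 14 hepatocyte genes the summed level lay between 12858 and 13899 CPM in the control, between 293 and 1565 CPM with SB525334, between 8417 and 16772 CPM with KN046 and between 54.8 and 67.0 CPM in the combination. Albumin (Alb) averaged 8185 CPM in the control and 9.52 CPM in the combination. Ass1 supplied 47.7 ± 6.37 CPM of the combination sum (SD, n = 4) and averaged 43.0 ± 5.48 CPM with SB525334. Of 10 hepatic stellate genes 7 were lower in the combination than in the control at an adjusted p under 0.05 (edgeR), among them Reln with 0.156 ± 0.243 CPM against 11.5 ± 3.69 CPM and Lrat with 0.0372 ± 0.0459 CPM against 2.35 ± 0.406 CPM (SD, n = 4 mice each), and Bmp10 had no count in any combination mouse. The summed stellate level was 859 to 951 CPM in the control and 930 to 965 CPM in the combination, of which Ecm1 supplied 887 ± 14.5 CPM in the latter group. Of 8 genes of splenic mesenchyme 4 were higher and 1 lower in the combination, with Tlx1 at 1.34 ± 0.152 CPM against 0.0328 ± 0.0656 CPM, Nkx2-3 at 1.86 ± 0.440 CPM against 0.0656 ± 0.131 CPM and Nkx2-5 at 0.836 ± 0.421 CPM against none. Over all genes tested 11.1% were called for the combination against control. All 4 combination libraries, labelled liver metastases, thus had the listed hepatocyte genes other than Ass1 near 0, and no value for that group can be given without these levels. The 15 fibroblast genes, none of them a member, summed to 9122 to 10524 CPM in the control, 8885 to 12906 CPM with SB525334, 8135 to 11003 CPM with KN046 and 7912 to 13826 CPM in the combination, so the ranges of all 4 groups overlapped. Col3a1 was the largest part of these sums, at 4768 ± 201, 5603 ± 1275, 4249 ± 863 and 6548 ± 1761 CPM in the same order of groups (SD, n = 4). Col6a3, Col1a1 and Col1a2 followed, so the sums are mostly collagen RNA. Fewer cells of a type and less RNA per cell cannot be told apart in tissue RNA. Control mice 1 and 2, and control mice 3 and 4, gave very similar libraries. Their median chi-square per gene was 1.26 and 0.960, where sampling noise alone gives 0.455 and the next closest of the 24 within-group pairs gave 2.59. They thus differed by more than sampling noise, and the labels name 4 samples. Whether a pair came from 1 tumor or 1 animal is not given in the sources used here. Control SDs, edgeR tests and permutation tests count 4 samples, and the edgeR fit was repeated with each pair summed.

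The members lie partly in clusters of the GRCm39 genome. Dcn (ENSMUSG00000019929, chr10:97315275-97358155) and Lum (ENSMUSG00000036446, chr10:97400990-97408577) are neighbors on the plus strand, followed by their relatives Kera and Epyc. Aspn, Omd and Ogn follow Ecm2 on chromosome 13, Prelp and Fmod lie beside Optc on chromosome 1, Bgn is on the X chromosome and Podn on chromosome 4. The 200 bases before the transcription start of the first pair are shown because these neighbors had unlike levels in the combination. Capitals mark matches to GGAATG, the core of the site bound by TEAD factors, on either strand, and both sequences are written in the direction of the gene.

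Lum, chr10:97400790-97400989, plus strand: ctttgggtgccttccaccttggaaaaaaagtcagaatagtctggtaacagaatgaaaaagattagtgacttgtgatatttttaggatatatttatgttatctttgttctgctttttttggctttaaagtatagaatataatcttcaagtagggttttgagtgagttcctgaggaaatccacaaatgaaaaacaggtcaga

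Dcn, chr10:97315075-97315274, plus strand: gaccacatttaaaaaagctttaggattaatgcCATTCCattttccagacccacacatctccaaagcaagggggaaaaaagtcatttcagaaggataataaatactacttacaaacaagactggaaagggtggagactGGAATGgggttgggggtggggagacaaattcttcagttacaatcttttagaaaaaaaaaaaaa

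The Dcn sequence held GGAATG at 63 bases before the start on the gene's own strand and at 168 bases on the opposite strand, and the Lum sequence held none. Of 21579 upstream regions of the same length, 9.468% held this motif, and 1 of the 9 members did. TATAAA, a core promoter element, occurred upstream of Ogn and Aspn and in 9.597% of all regions. In Ogn its matches on the 2 strands overlapped. CAGACA, a form of the SMAD site, and TGANTCA, the AP-1 site, occurred upstream of none of the members and in 12.6% and 4.94% of all regions. The shorter letters CAGAC were not counted. They stand in the printed Dcn sequence and, on the opposite strand, in that of Lum. These matches on either strand describe letters in the reference genome and are not measurements of binding.

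Per kilobase of transcript, Bgn had the highest level in every group, with 1088 ± 130 CPM per kb in the control (SD, n = 4). It made up 87.7% ± 0.278 of the summed per-length level of the family there and 87.0% ± 1.37 in the combination. Biglycan carries chondroitin or dermatan sulfate chains and, when released from the matrix, is known to bind the receptors TLR2 and TLR4. Prelp and Dcn followed with 75.8 ± 4.73 and 55.1 ± 8.15 CPM per kb in the control, and their order was reversed with KN046, at 54.5 ± 19.9 and 62.0 ± 14.2 CPM per kb, where their ranges overlapped. By the length of all exons together Prelp stayed above Dcn with KN046, at 33.5 against 29.0 CPM per kb, so this order depends on the length used. Lum followed in the control, at 12.6 ± 1.90 CPM per kb, ahead of Aspn at 5.11 ± 1.09 CPM per kb. In the combination this order was reversed, with Lum at 2.50 ± 2.02 and Aspn at 10.8 ± 6.01 CPM per kb. By the length of all exons Aspn was above Lum with SB525334 as well, at 5.18 against 4.64 CPM per kb. Ogn had 1.98 ± 0.589 CPM per kb in the control, above Podn with 0.773 ± 0.0936 and Fmod with 0.633 ± 0.123, whose ranges overlapped, and Omd was lowest with 0.285 ± 0.0398. The summed level of the 9 genes was 3357 ± 391 CPM in the control, 3874 ± 376 CPM with SB525334, 3277 ± 454 CPM with KN046 and 3659 ± 354 CPM in the combination. Bgn supplied 78.5% ± 0.445 of the family's reads in the control and Lum 0.922% ± 0.0425, so the total says little of the rarer members.

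**Figure D1:**
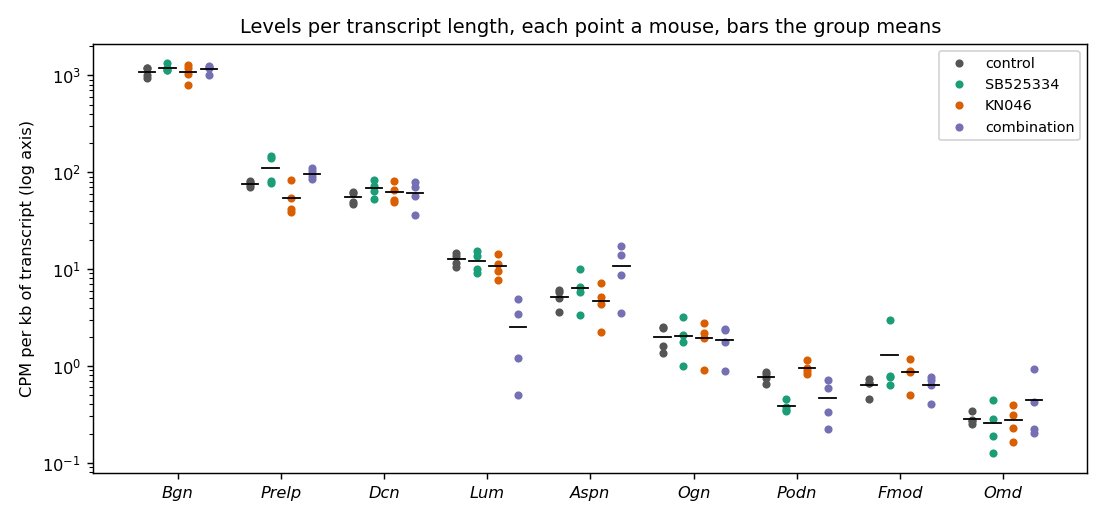
CPM per kilobase of the canonical transcript (log axis) for each member, ordered by the control mean, with a point for each of the 4 mice in each group and a bar at the group mean. Bgn lies highest in every group at about 1088 CPM per kb in the control, and Lum and Aspn change places in the combination.

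Across all genes tested, 9.61% were called in either direction with SB525334 against control, 4.0% with KN046 and 11.1% in the combination, by edgeR's quasi-likelihood test at an adjusted p under 0.05. Of the 9 members, 1 was called with SB525334 (Podn, lower), 0 with KN046 and 1 in the combination (Lum, lower). These 3 comparisons share the control mice. The number of genes called for KN046 against control, 559, moved with single libraries. The fit with the control pairs summed called 0 of 14241, fits without 1 control mouse called 65 to 157, those without KN046 replicate 1 or 3 called 21 and 60, that without KN046 replicate 2 called 2096 of 14061, and that of only the mice compared called 75. With KN046 no member had an unadjusted p under 0.05 and DESeq2 also called 0. Against KN046 the combination had 4 called members, Lum and Podn lower and Aspn and Prelp higher, where 24.4% of all genes were called, 9.89% higher and 14.5% lower. Against SB525334 the combination had 1 called member, Lum, where 3.57% of all genes were called. The interaction, which asks whether the effect of one agent differed with and without the other, was called for 4.28% of all genes and for 0 members, with 2 members at an unadjusted p under 0.05 (Lum and Fmod) and 0 called by DESeq2. The median log2 fold change of the members was 0.15 with SB525334, -0.02 with KN046 and 0.10 in the combination, against 0.00, -0.03 and 0.01 over all genes tested. By the thresholds that the study used, an unadjusted DESeq2 p under 0.05 and a fold over 2, 8.81% of 17892 genes and 2 members (Fmod and Podn) passed with SB525334, 3.58% and 0 members with KN046, and 9.37% and 2 members (Lum and Aspn) in the combination. By the same thresholds 10.7% of genes and 3 members passed for the combination against KN046, and 5.32% and 2 members (Lum and Fmod) for the combination against SB525334.

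**Figure D2:**
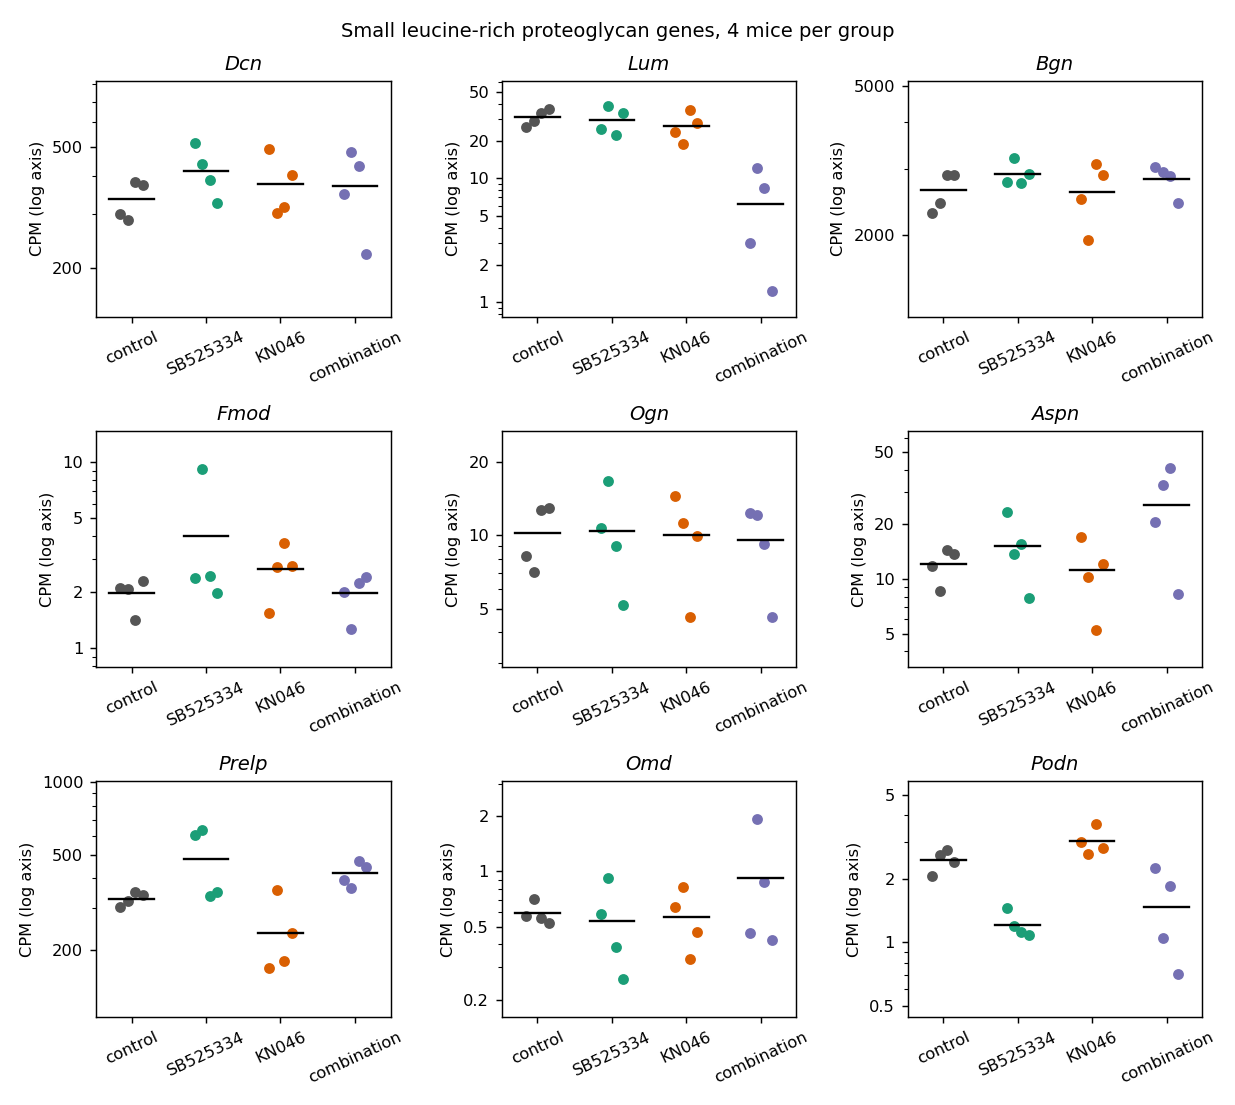
CPM (log axis, a separate range for each gene) of the 9 members in each of the 4 mice of each group, with a bar at the group mean. The 4 combination mice lie below all other mice for Lum, at 1.23 to 12.0 CPM, and the 4 SB525334 mice lie below the control and KN046 mice for Podn.

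Lum encodes lumican, a keratan sulfate proteoglycan that binds collagen fibrils and is known for keeping the cornea clear. The 4 control mice had 25.7, 28.7, 33.8 and 35.9 CPM, and the SB525334 mice had 24.7, 38.0, 22.4 and 33.9 CPM. The KN046 mice had 23.6, 19.0, 35.6 and 27.8 CPM, and the combination mice had 2.98, 12.0, 8.41 and 1.23 CPM. Every combination mouse lay below every mouse of the other 3 groups, and the other 3 groups overlapped. The lowest value rested on 26 reads, for which the exact Poisson interval was 17.0 to 38.1 reads and covers counting error only. Against control the log2 fold change of the combination was -2.34 (standard error 0.44, 95% interval -3.26 to -1.43, adjusted p = 0.000739, edgeR). Against KN046 it was -2.11 (standard error 0.43, adjusted p = 0.00186, edgeR) and against SB525334 -2.28 (standard error 0.43, adjusted p = 0.00319, edgeR). Each of these 3 differences passed in every alternative run, including each mouse left out and the control pairs summed. With SB525334 alone the log2 fold change against control was -0.06 (95% interval -0.91 to 0.79, adjusted p = 0.962, edgeR) and with KN046 alone -0.23 (95% interval -1.08 to 0.62, adjusted p = 0.769, edgeR), both intervals spanning 0. The interaction was -2.05 in log2 units (standard error 0.59, adjusted p = 0.0588, edgeR) and missed the threshold. It passed without combination replicate 2, at -2.60 (adjusted p = 0.0110, edgeR), and without KN046 replicate 2, at -2.20 (adjusted p = 0.0367, edgeR). Its adjusted p was 0.196 with the control pairs summed, 0.120 without SB525334 replicate 2 and 0.117 without KN046 replicate 3 (edgeR). The hepatocyte, stellate and splenic mesenchyme genes moved with the combination as well. The SB525334 mice, whose Lum levels overlapped those of the control, had hepatocyte sums of 293 to 1565 CPM. These lay above the 54.8 to 67.0 CPM of the combination. Of the 10 stellate genes 2 were called lower than control with SB525334 and 7 in the combination. Of the 8 splenic genes 0 were called higher with SB525334 and 4 in the combination, with 1 lower in each. The part of these genes in the Lum difference was not tested.

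**Figure D3:**
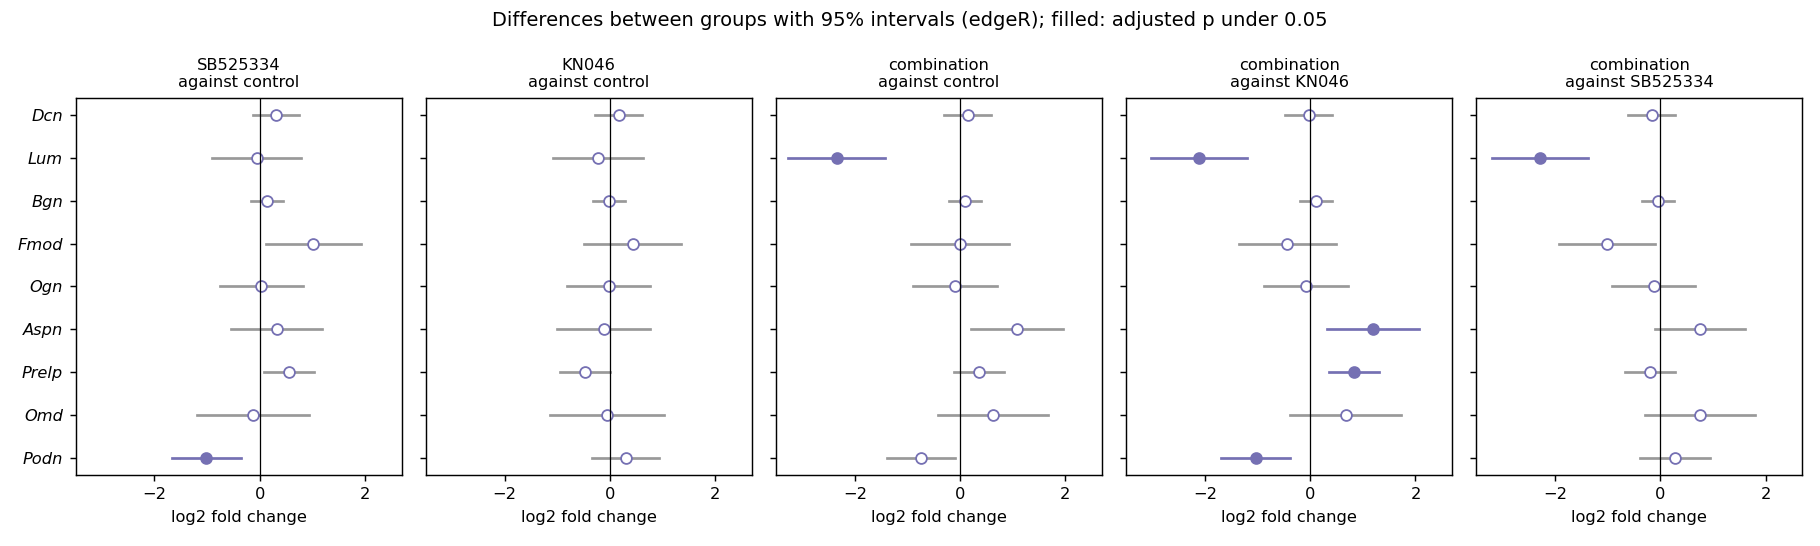
Log2 fold changes of the 9 members in 5 comparisons, with 95% intervals from edgeR and filled points where the adjusted p was under 0.05. Lum lies at -2.34, -2.11 and -2.28 in the 3 comparisons of the combination, and the points of Dcn, Bgn and Ogn lie close to 0 throughout.

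Prelp encodes a basic protein that binds heparan sulfate as well as collagen and is found at basement membranes. The control mice had 302, 321, 349 and 339 CPM and the SB525334 mice 606, 632, 337 and 350 CPM. The KN046 mice had 169, 357, 181 and 235 CPM and the combination mice 392, 365, 473 and 445 CPM. SB525334 mice 1 and 2 lay above all other mice and mice 3 and 4 within or just above the control range, while all combination mice lay above all control and KN046 mice. Against control the combination was not called all the same, and its unadjusted p was not under 0.05 (edgeR). Against KN046 the combination was higher by 0.83 in log2 units (standard error 0.23, adjusted p = 0.0144, edgeR). Scaled to the fibroblast genes in place of all genes, this difference was 0.63 (adjusted p = 0.0880, edgeR) and missed the threshold, and that scaling moved the median of all genes by -0.18 in this comparison. Of the fibroblast genes 3 of 15 were called higher in the same comparison, Thy1, Col3a1 and Pdgfrb. Their part in the Prelp difference was not tested. Col3a1, the largest part of the fibroblast sum used for that scaling, also stands in the collagen list described last. With SB525334 the log2 fold change against control was 0.55 (standard error 0.23, adjusted p = 0.169, edgeR) and did not pass. An annotated antisense lncRNA, Gm15851, shares 350 exon bases with Prelp and is absent from the counts used, and since the strand setting of the counting is not given in the sources used here, reads of the 2 cannot be told apart.

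Fmod encodes fibromodulin, which shares a collagen site with lumican and helps early fibrils form. It was rare, at 1.98 ± 0.383 CPM in the control, 2.68 ± 0.878 CPM with KN046 and 1.98 ± 0.501 CPM in the combination. The SB525334 mice had 2.40, 9.20, 2.45 and 1.98 CPM. A single mouse, SB525334 replicate 2, stood apart, and the other 15 lay between 1.27 and 3.69 CPM. The log2 fold change with SB525334 was 1.02 (standard error 0.43, adjusted p = 0.192, edgeR), that of the combination against SB525334 was -1.02 (adjusted p = 0.406, edgeR), and the interaction was -1.45 (standard error 0.62, adjusted p = 0.233, edgeR). None of the 3 passed. Without SB525334 replicate 2 they were 0.21, -0.21 and -0.65. Omd, whose protein binds hydroxyapatite and is best known from bone, had 6 to 35 reads a mouse and averages between 0.537 and 0.923 CPM. Its highest mouse, combination replicate 2, had 1.93 CPM, and its log2 fold changes over the 5 comparisons lay between -0.13 and 0.76, with no call.

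Aspn was the class I member with the largest difference. Asporin has a run of aspartate residues and is known to bind TGF-β and collagen. The control mice had 11.8, 8.61, 14.4 and 13.6 CPM and the SB525334 mice 23.5, 13.7, 15.5 and 7.88 CPM. The KN046 mice had 16.9, 10.3, 5.25 and 12.1 CPM and the combination mice 20.6, 32.9, 40.7 and 8.25 CPM. Combination mice 1, 2 and 3 lay above all control and KN046 mice, and mouse 4 lay just below the control range and within that of KN046. The combination was higher than KN046 by 1.20 (standard error 0.42, adjusted p = 0.0443, edgeR) and than control by 1.08 in log2 units (standard error 0.41, adjusted p = 0.118, edgeR), of which only the first passed. The first missed the threshold with the control pairs summed (adjusted p = 0.0589, edgeR). It was also lost with only the mice compared (adjusted p = 0.0918) and when scaled to the fibroblast genes (0.0706), both by edgeR. Leaving out KN046 replicate 2, 3 or 4, or combination replicate 2 or 3, lost it too. Without combination replicate 3 it was 0.89 (adjusted p = 0.152, edgeR). Without combination replicate 4 the difference from control was 1.39 and passed (adjusted p = 0.0154, edgeR).

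Dcn encodes decorin, which coats collagen fibrils, binds TGF-β and is known to dampen signaling through EGFR and MET. The control mice had 300, 287, 384 and 374 CPM, the SB525334 mice 512, 440, 388 and 326 CPM, the KN046 mice 491, 303, 317 and 403 CPM and the combination mice 349, 481, 432 and 222 CPM. All 4 groups overlapped, and over the 5 comparisons the log2 fold change lay between -0.17 and 0.31, with the 95% intervals between -0.61 and 0.75. Bgn averaged 2635 ± 315 CPM in the control, 2915 ± 214 CPM with SB525334, 2609 ± 504 CPM with KN046 and 2823 ± 262 CPM in the combination. Its log2 fold changes lay between -0.05 and 0.15 with intervals between -0.35 and 0.45, the narrowest of the family. Ogn, whose protein is also known as mimecan, averaged 10.2 ± 3.05, 10.4 ± 4.80, 10.1 ± 4.10 and 9.58 ± 3.61 CPM in the same order of groups. Its log2 fold changes lay between -0.12 and 0.03, and its intervals were wider, from -0.91 to 0.81. Ogn shares 1155 exon bases and Aspn 267 with Cenpp, a kinetochore gene on the opposite strand. How reads from these stretches were counted is not known, since the strand setting is not given in the sources used here.

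Podn encodes podocan, first described in kidney, which binds collagen. The control mice had 2.06, 2.60, 2.74 and 2.40 CPM and the SB525334 mice 1.45, 1.19, 1.12 and 1.08 CPM. The KN046 mice had 2.98, 2.63, 3.63 and 2.81 CPM and the combination mice 2.26, 1.05, 1.86 and 0.707 CPM. All SB525334 mice lay below all control and KN046 mice, all combination mice lay below all KN046 mice, and the combination overlapped both the control and SB525334. With SB525334 the log2 fold change against control was -1.02 (standard error 0.31, adjusted p = 0.0467, edgeR), and the combination against KN046 gave -1.04 (standard error 0.31, adjusted p = 0.0226, edgeR). The second was lost with only the mice compared (adjusted p = 0.0880), without KN046 replicate 3 (0.0602) and without combination replicate 2 (0.0740) or 4 (0.0668), all by edgeR. The combination against control was -0.74 (standard error 0.31, adjusted p = 0.160, edgeR) and did not pass, though it did without combination replicate 1, at -1.0 (adjusted p = 0.0423, edgeR). The 16 mice had 15 to 65 Podn reads. The call with SB525334 was lost when any of the 8 mice compared was left out, at adjusted p between 0.0632 and 0.122 (edgeR), and with the control pairs summed, at 0.184. The fit of those 8 mice alone kept it, at -1.01 (adjusted p = 0.0137, edgeR). The hepatocyte genes were lower in both groups that received SB525334, with all 14 called against control in each, and their part in the Podn levels was not tested.

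**Figure D4:**
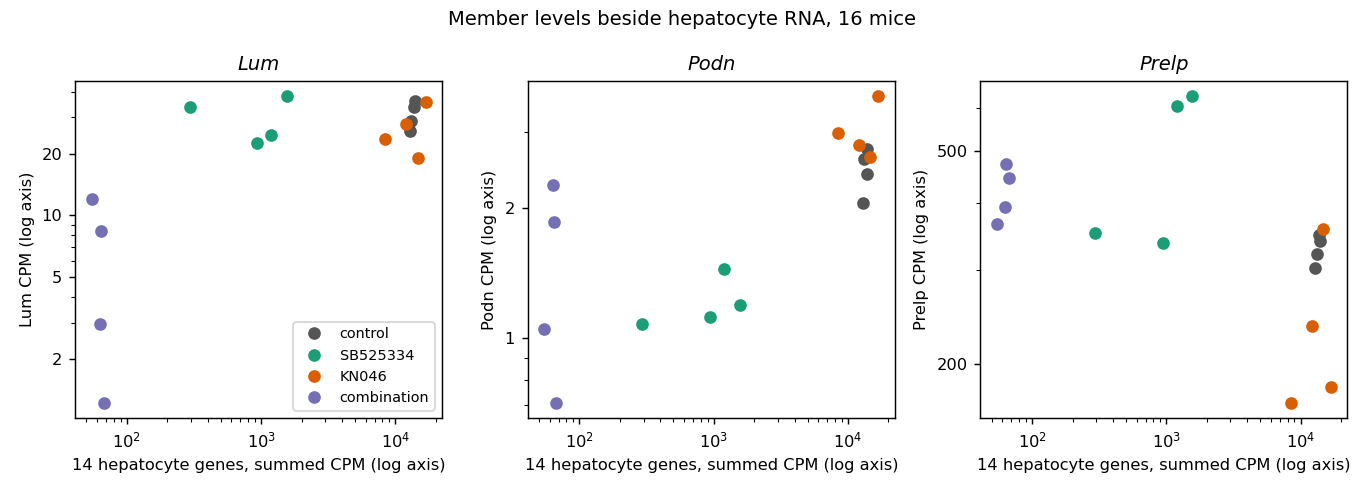
CPM of Lum, Podn and Prelp against the summed CPM of 14 hepatocyte genes, both on log axes, with a point for each of the 16 mice. The SB525334 mice have hepatocyte sums of 293 to 1565 CPM with Lum at 22.4 to 38.0 CPM, and the combination mice have sums of 54.8 to 67.0 CPM with Lum at 1.23 to 12.0 CPM.

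Ratios between members do not depend on library scaling. Lum had 9.25 ± 0.667 reads per 100 Dcn reads in the control, 7.41 ± 2.56 with SB525334, 7.30 ± 2.77 with KN046 and 1.46 ± 0.914 in the combination (SD, n = 4). The highest combination mouse had 2.50 and the lowest mouse of any other group 4.81. The combination was below each of the other groups by the exact two-sided permutation test (p = 0.0286, adjusted p = 0.0476 over the 5 comparisons). The smallest value that 4 mice against 4 allow is 0.0286, with the similar control libraries counted as 4. The adjustment covered each ratio alone. On Lum CPM the same permutation test, adjusted over the 9 members, gave 0.129 against control, 0.0857 against KN046 and 0.257 against SB525334. For Prelp CPM in the combination it gave 0.129 against control and 0.0857 against KN046. None of these passed. Podn had 0.737 ± 0.117 reads per 100 Dcn reads in the control and 0.293 ± 0.0257 with SB525334, groups that did not overlap (exact permutation p = 0.0286, adjusted p = 0.0952 over the 5 comparisons). With KN046 the value was 0.830 ± 0.238 and in the combination 0.403 ± 0.184. Ogn had 83.7 ± 10.8 reads per 100 reads of Aspn, from the same chromosome 13 cluster, in the control and 43.9 ± 17.5 in the combination (exact permutation p = 0.0286, adjusted p = 0.0714), which missed the threshold after adjustment. Fmod had 0.607 ± 0.135 reads per 100 Prelp reads in the control and 1.22 ± 0.571 with KN046 (exact permutation p = 0.0286, adjusted p = 0.0714).

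**Figure D5:**
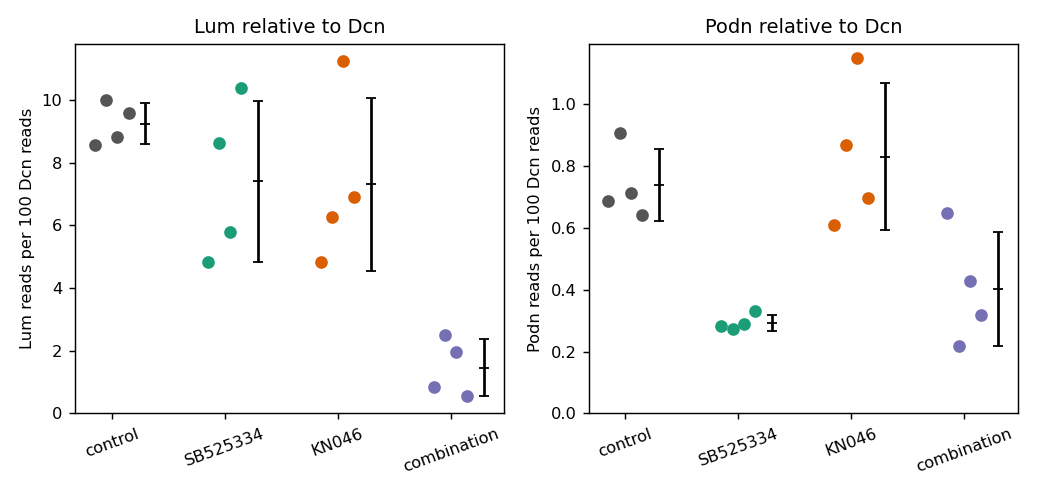
Reads of Lum and of Podn per 100 reads of Dcn on linear axes from 0, with a point for each of the 4 mice in each group and the group mean with its SD beside them. The combination mice have 0.552 to 2.50 Lum reads per 100 Dcn reads, below all other mice, and the SB525334 mice have the lowest mean for Podn, at 0.293.

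The members did not vary as a block from mouse to mouse. With group means removed, Pearson's r of log2 CPM over the 16 mice was 0.91 for Dcn and Aspn, 0.77 for Ogn and Aspn, 0.75 for Dcn and Ogn and 0.66 for Dcn and Lum, while it was 0.01 for Dcn and Prelp and -0.25 for Dcn and Fmod. These values are descriptions, and the points share libraries. By r over the 16 mice, group differences included, the genes most like Lum were Ptgis, the prostacyclin synthase (r = 0.91), P4ha3, a subunit of the prolyl hydroxylase that acts on collagen (r = 0.90), and Postn, the matrix protein periostin (r = 0.88). Postn averaged 45.4 ± 3.12, 40.7 ± 3.22, 44.3 ± 14.5 and 22.9 ± 9.59 CPM in the control, SB525334, KN046 and combination groups. Ptgis averaged 6.35 ± 1.70 CPM in the control and 0.609 ± 0.881 CPM in the combination. Most like Prelp were Rab3il1 (r = 0.94), Sstr2 (r = 0.93) and Prdm11 (r = 0.92), and most like Podn were Fyb2, Eda and Qsox1 (r = 0.89, 0.89 and 0.88). For Bgn they were Snrpa, Anxa6 and Sparc, the last a matrix protein at 2397 ± 313 CPM in the control (r = 0.87, 0.84 and 0.82). For Dcn they were Rhoj, Dennd2a and Ssbp2, for Aspn Bet1l, Slitrk6 and Ube2w, for Fmod Slc5a5, Myh13 and Ppp2r3d, for Ogn Zic5, Gab3 and Apod, and for Omd Fastk, Smim8 and Ly96, with r between 0.71 and 0.87.

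Of 9 relatives (Ecm2, Kera, Epyc, Optc, Chad, Chadl, Nyx, Tsku and Podnl1) 4 passed the filter on low counts and 0 were called in any of the 6 comparisons by edgeR or DESeq2, with 1 gene at an unadjusted edgeR p under 0.05 in each of 2 comparisons. Tsku, which encodes tsukushi, averaged 51.5 ± 5.45 CPM in the control and 50.0 ± 4.27 CPM in the combination. Kera, the next gene after Lum, had at most 4 reads in a mouse, and Epyc had none in the combination.

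Of 27 genes for the glycosaminoglycan chains and their sulfation, 26 were tested. With SB525334, 1 was called higher and 1 lower, where 9.61% of all genes were called. With KN046, 2 were higher and 1 lower, where 4.0% of all genes were called. None of these KN046 calls was kept with the control pairs summed. In the combination 1 was higher and 2 were lower than in the control, and 8 were higher and 3 lower than with KN046. Against SB525334 0 passed by edgeR or DESeq2, with 0 at an unadjusted p under 0.05. Over all genes tested the shares called by edgeR in these 3 comparisons of the combination were 11.1%, 24.4% and 3.57%. The median log2 fold change of the list was 0.13, -0.10 and 0.16 in the 3 comparisons with control, against 0.00, -0.03 and 0.01 over all genes tested. Xylt2, a xylosyltransferase that starts the chain, was higher than control in all 3 treated groups, at log2 fold changes of 0.31 (adjusted p = 0.0393), 0.34 (0.0460) and 0.46 (0.00132) with SB525334, KN046 and the combination (edgeR), the second not called with the control pairs summed. Chsy3, which lengthens chondroitin chains, was lower with SB525334 at 0.658 ± 0.211 CPM and in the combination at 0.508 ± 0.403 CPM than in the control at 2.27 ± 0.290 CPM. Chst15, which adds a further sulfate to chondroitin sulfate, averaged 5.28 ± 1.09 CPM in the combination, below the control at 10.2 ± 2.80 CPM and KN046 at 13.5 ± 4.29 CPM. Fam20b, the kinase that phosphorylates the linker xylose, was lower with KN046 at 71.0 ± 9.60 CPM than in the control at 92.8 ± 7.12 CPM and the combination at 95.2 ± 4.77 CPM. Chpf2, a partner of the chondroitin polymerases, averaged 17.2 ± 2.04 CPM in the control and 28.5 ± 2.19 CPM with KN046, and it was the list's single interaction call at -0.69 in log2 units (adjusted p = 0.0141, edgeR). Chst1, a keratan sulfate sulfotransferase, was higher in the combination than with KN046, at 54.3 ± 3.19 against 40.9 ± 6.32 CPM.

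Of 17 genes for receptors and ligands that these proteoglycans bind, 2 were called lower with SB525334 (Egfr and Kdr), 1 lower with KN046 (Tlr2) and 1 lower in the combination (Egfr). Over all genes tested the shares called in these comparisons were 9.61%, 4.0% and 11.1%. Egfr, which decorin binds, averaged 50.1 ± 10.1 CPM in the control, 5.78 ± 1.46 CPM with SB525334, 35.2 ± 13.9 CPM with KN046 and 1.88 ± 0.605 CPM in the combination. Its level was lowest in the groups with the lowest hepatocyte sums, and the part of hepatocyte RNA was not tested. Kdr, a receptor of blood vessel cells, was 8.57 ± 3.64 CPM with SB525334 and 27.5 ± 18.3 CPM in the control, and 5 of 7 endothelial genes, Kdr included, were called lower in this comparison. The summed endothelial level was 209 and 210 CPM in control mice 1 and 2, 92.5 and 93.6 CPM in control mice 3 and 4, and 40.6 to 91.7 CPM with SB525334. Tlr2, a receptor for biglycan, was 11.0 ± 5.95 CPM with KN046, 22.0 ± 1.65 CPM in the control and 23.0 ± 2.04 CPM in the combination, and 2 of 7 leukocyte genes were lower with KN046 than in the control. These calls, too, were lost with the control pairs summed. Against KN046 the combination was higher for Tgfb1, Tlr2 and Ccn4 and lower for Egfr, 4 of 17, where 24.4% of all genes were called. Tgfb1, a ligand of decorin and asporin, differed by 0.38 in log2 units (standard error 0.09, adjusted p = 0.00426, edgeR). Against SB525334 the combination was higher for Itga2, a collagen receptor chain, and lower for Egfr, where 3.57% of all genes were called. For the interaction edgeR called 0, with 7 at an unadjusted p under 0.05, and DESeq2 called 2 (Ccn4 and Itga2). The median log2 fold change of the list was -0.09, -0.02 and 0.06 in the 3 comparisons with control.

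Of 14 genes for collagens and their processing, 13 were tested. With SB525334 edgeR called 0, with 4 at an unadjusted p under 0.05, and DESeq2 called 2 (Col14a1 and Col12a1), and with KN046 both called 0, with 0 at an unadjusted p under 0.05. By edgeR 4 were lower in the combination than in the control and 0 were higher. The median log2 fold change of the list was 0.02, 0.00 and 0.01 in the 3 comparisons with control. Over all genes tested edgeR called 9.61%, 4.0% and 11.1% in these comparisons, and 24.4% for the combination against KN046. Col14a1, a collagen on the surface of fibrils, averaged 47.7 ± 4.31 CPM in the control, 29.8 ± 4.44 CPM with SB525334, 61.8 ± 22.7 CPM with KN046 and 12.8 ± 3.40 CPM in the combination. Its log2 fold change in the combination was -1.90 (standard error 0.23, adjusted p = 5.9e-06, edgeR), and its interaction was -1.59 (adjusted p = 0.00634, edgeR). Lox, which cross-links collagen, averaged 36.0 ± 5.85 CPM in the control and 13.0 ± 1.77 CPM in the combination, Col12a1 33.3 ± 9.53 against 13.7 ± 3.51 CPM and Col1a2 1164 ± 15.7 against 786 ± 121 CPM. Col3a1, which forms fibrils with type I collagen, was higher in the combination than with KN046, at 6548 ± 1761 against 4249 ± 863 CPM (edgeR), beside 3 called lower. DESeq2 called 5 there, with Pcolce, an enhancer of procollagen processing, also higher, at 645 ± 11.1 against 523 ± 51.4 CPM. Of 5 epithelial genes tested all were lower in the combination than in the control. Krt20 and Cdx2, also among the 7 listed, were at 0 in the combination and with SB525334. They had at most 4 and 1 reads in a control mouse. In the combination 1 of 6 mesothelial genes tested and 1 of 8 smooth muscle genes tested were lower than in the control too. The part of these marker genes in the values of the collagen list was not tested.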

How the data were processed

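Tumor RNA of 16 mice was sequenced by the authors as mRNA libraries on an Illumina instrument. The authors used Cutadapt 2.7 for trimming, HISAT2 2.2.1 for alignment to GRCm39 and HTSeq 2.0.4 for gene counts, and compared groups with DESeq2 1.38.3. The deposited raw counts per gene were used, and the deposited normalized values, the same counts divided by a size factor and rounded, were not. How reads on overlapping genes or on either strand were counted is not given in the sources used here. The total count per mouse was 18368994 to 23877131, and Poisson intervals cover counting error only.

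Groups came from the labels. Of 21959 identifiers, 21770 matched GENCODE M39, the source of symbols, lengths and positions, and upstream sequences were read from the GRCm39 genome. Counts of all genes were fitted in R 4.3.3 with edgeR 4.0.16 (TMM, filterByExpr with a minimum count of 10, quasi-likelihood test over 4 groups, Benjamini-Hochberg adjustment over 13968 genes, threshold 0.05). The biological coefficient of variation was 20.1%. CPM values are on the TMM scale, standard errors are the log2 fold change divided by the root of F, and SDs are over 4 mice. Ratios, and CPM of Lum and Prelp where such a p is given, were compared by exact two-sided permutation (70 splits). Likeness used log2(CPM + 0.1). The pipeline was tested on simulated counts.

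Alternatives were DESeq2 1.42.0, the study's thresholds, other scalings and filters, the replicate number as a block, similar controls summed, only the mice compared, and each mouse left out. From the lists other than the family, genes past the threshold were named up to 6 a list by smallest adjusted p, and for each member the 3 genes with the highest r. Marker genes named as a check of the tissue fall outside this rule. The members and lists were chosen with earlier results of these data known.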

Additional observations from a re-analysis of the deposited data

Results flagged for a closer look

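Over 36 sets of 4 mice, 9 genes in 4 groups, 1 value stood apart from its group. Fmod in SB525334 replicate 2 was 9.20 CPM, and its gap to the nearest of the other mice was 0.935 of the range of the group; by Dixon's test for 4 samples this is past the 95% point. Chance gives about 1.8 such values in 36 sets.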

How the results depend on the processing

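The number of members called with SB525334 against control was 1, where 1343 of 13968 genes in all were called. It fell to 0 with library totals in place of TMM scaling (1308 of 13968 in all) and with genes of at least 1 count in any mouse kept (1389 of 17902). It was also 0 with the control pairs summed (1027 of 14241) and in each leave-one-out fit (range 0 to 0), where 1146 to 1308 genes were called. By the study's thresholds it rose to 2, with 1576 of 17892 genes passing. The interaction count of 0, where 598 of 13968 genes were called, became 1 (Lum) with genes of at least 1 count in any mouse kept (609 of 17902). It was also 1 (Lum) with scaling to the fibroblast genes (560 of 13968), and 0 to 1 with a mouse left out, where 377 to 944 genes were called. For the combination against KN046 the count of 4 was 2 when scaled to the fibroblast genes and 2 with only the mice compared. In these fits 2125 of 13968 and 1855 of 13421 genes in all were called against 3406 of 13968. With a mouse left out the count was 2 to 4, where 2311 to 4315 genes were called. For the combination against control and against SB525334 it was 2 by the study's thresholds in each, where 1677 and 952 of 17892 genes passed. On leaving out a mouse it was 1 to 2 against control, where 1299 to 2184 genes were called. For KN046 against control, with a mouse left out, it was 0 to 1. The 1 was Prelp without KN046 replicate 2 (-0.74, adjusted p = 0.0252, edgeR), in a fit that called 2096 of 14061 genes. Lum with SB525334 changed sign, between -0.193 and 0.0588, with a mouse left out. The causes were not tested. Replicate numbers did not pair the mice: the correlation of deviations over 24 same-numbered pairs was -0.34 to 0.38 with 7 over 0.1, and 6 of 16 mice correlated best with their own number. With the replicate number as a block, Aspn in the combination against KN046 was 1.13 (adjusted p = 0.0633, edgeR), which lowered that count to 3, and the other 5 counts were 1, 0, 1, 1 and 0 as before. For the 38 gene and comparison pairs given without an edgeR p-value from the main fit, 64 of 720 alternative fits changed sign and 1 was called. Podn and Omd rested on few reads, 15 to 65 and 6 to 35 a mouse, which limits the precision of both.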
